A study of Mus musculus with 6 samples.

Results

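Oxidative phosphorylation genes were taken from the expression table as the rows whose gene symbol names a subunit of mitochondrial complexes I to V or a complex I assembly factor of the Ndufaf family. The symbols began with Ndufa, Ndufb, Ndufc, Ndufs, Ndufv, Uqcr, Cox4 to Cox8 or Atp5, or were Sdha, Sdhb, Sdhc or Sdhd. This gave 95 rows, of which 94 held values, out of 19306 gene rows with values and 22064 rows in all. The row without values was Cox8c, a testis isoform. The 94 genes comprised 38 of complex I, 4 of complex II, 8 of complex III, 19 of complex IV, 17 of complex V and 8 assembly factors. Ndufa4 and Ndufa4l2 were counted under complex IV, where the Ndufa4 protein is found.

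Oxidative phosphorylation is the route by which mitochondria turn fuel into ATP. Complexes I and II pass electrons from NADH and succinate to ubiquinone, complex III passes them to cytochrome c, complex IV (cytochrome c oxidase) passes them to oxygen, and complex V (ATP synthase) uses the proton gradient so made. Sensory neurons of the dorsal root ganglion (DRG) have long axons and depend heavily on mitochondrial ATP. Several complex IV subunits exist as a widely expressed form and a form found mainly in heart and skeletal muscle, so these genes also report on the tissue in a sample.

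RNA-Seq was performed on ipsilateral L3-5 DRG of wild-type mice on day 14, with 3 LAS libraries and 3 sham libraries. In the lateral ankle sprain (LAS) group the anterior talofibular and calcaneofibular ligaments (ATFL and CFL) were transected through a small ankle incision, and the sham group received the incision with both ligaments left intact. All mice were perfused with saline. The study used male and female C57BL/6 mice aged 6 to 8 weeks, and the sex of the mice behind each library and the number of animals pooled in it were not given, so p-values describe the spread among libraries, which may be technical. The values were FPKM, fragments normalized to gene length and library size. The study gives near-equal clean read totals for all libraries. The number of reads behind single values is unknown, since FPKM are not counts. In a whole ganglion, fewer cells of a type and less RNA per cell cannot be told apart.

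Sham replicate 3 differed from all other libraries before any comparison was made. Its FPKM values summed to 448142, against 398503 to 411642 in the others, and its mean correlation with the others was 0.969, against 0.984 to 0.986. A list of 12 skeletal muscle genes summed to 361, 160 and 109 FPKM in LAS replicates 1 to 3, and to 111, 311 and 2425 FPKM in sham replicates 1 to 3. All 12 were highest in sham replicate 3, and none was at 0 in any library. Neutrophil genes (4 genes) summed to 94.8 to 357 FPKM in LAS and to 57.6, 85.3 and 1786 FPKM in sham libraries, and erythroid genes (3 genes) to 2829 to 3976 FPKM in LAS and to 2212, 2587 and 8077 FPKM in sham libraries, again with the maximum in sham replicate 3. The 8 sensory neuron markers summed to 3773 to 3878 FPKM in LAS and 3763 to 3792 FPKM in sham libraries, and none of them was at 0, so markers of the labelled tissue were present throughout. Counts of genes higher or lower in LAS are therefore given with and without sham replicate 3, and the part of muscle, blood or neutrophil RNA in it was not tested.

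As a group, the oxidative phosphorylation genes were abundant and differed more among the sham libraries than between LAS and sham. Their summed level was 12343, 11521 and 11483 FPKM in LAS replicates 1 to 3, and 11430, 11103 and 14735 FPKM in sham replicates 1 to 3. The 3 LAS libraries lay above sham replicates 1 and 2 and below sham replicate 3. As a share of all FPKM the genes made up 3.01%, 2.80% and 2.84% in LAS libraries, and 2.87%, 2.78% and 3.29% in sham libraries. By share, LAS replicates 2 and 3 lay below sham replicate 1. In summed FPKM, the LAS mean was -5.15% from the mean of all 3 sham libraries and 4.58% above the mean of sham replicates 1 and 2. By complex, the LAS mean was 3.73% (complex V) to 5.38% (complex IV) above the mean of these 2 sham libraries. All FPKM summed to 404558 to 411642 in LAS libraries, against 398503 and 399982 in sham replicates 1 and 2. The percentages above were not corrected for this.

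LAS and sham were compared by limma on log2(FPKM + 0.1), a scale that understates the change of low genes, over the 14006 genes that reached 0.5 FPKM in 3 or more libraries. Of the 94 oxidative phosphorylation genes, 92 passed this filter. None of the 92 was called, which required a Benjamini-Hochberg adjusted p no higher than 0.05 and a fold of 1.5 or more, and the background was 0% of all tested genes. At an unadjusted limma p of at most 0.05 there was 1 oxidative phosphorylation gene (Ndufaf2), beside 495 genes in all (3.53%). On average 77 of the 92 were lower and 15 higher in LAS, where 48.3% of all tested genes were lower and 51.7% higher. The median log2 fold change of the 92 genes was -0.06, against 0.00 over all tested genes. The LAS and sham values did not overlap for 2 of the 92 genes, both lower in LAS (Ndufaf1 and Ndufaf2), against 3.81% of all tested genes, and for 0 genes higher in LAS, against 5.89%.

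This direction depended on 1 library. For 89 of the 92 genes (96.7%) the maximum was in sham replicate 3, as it was for 33.4% of all tested genes. Among the tested genes outside oxidative phosphorylation, this share was 71.0% for transcripts under 700 bases, 72.4% from 700 to below 1000 bases, 60.5% from 1000 to below 2000 bases and 22.7% at 2000 bases or more. The exceptions were Cox4i2, highest in LAS replicate 3, and Cox6b2 and Ndufa4l2, both highest in LAS replicate 2. LAS replicate 1 was the second highest library for 59 of the 92 (64.1%), against 20.2% of all tested genes. The median deviation of the 92 genes from their own mean was 0.04, -0.07 and -0.05 log2 units in LAS replicates 1 to 3, and -0.07, -0.11 and 0.28 in sham replicates 1 to 3. Over all tested genes the same medians lay between -0.02 and 0.02.

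**Figure D1:**
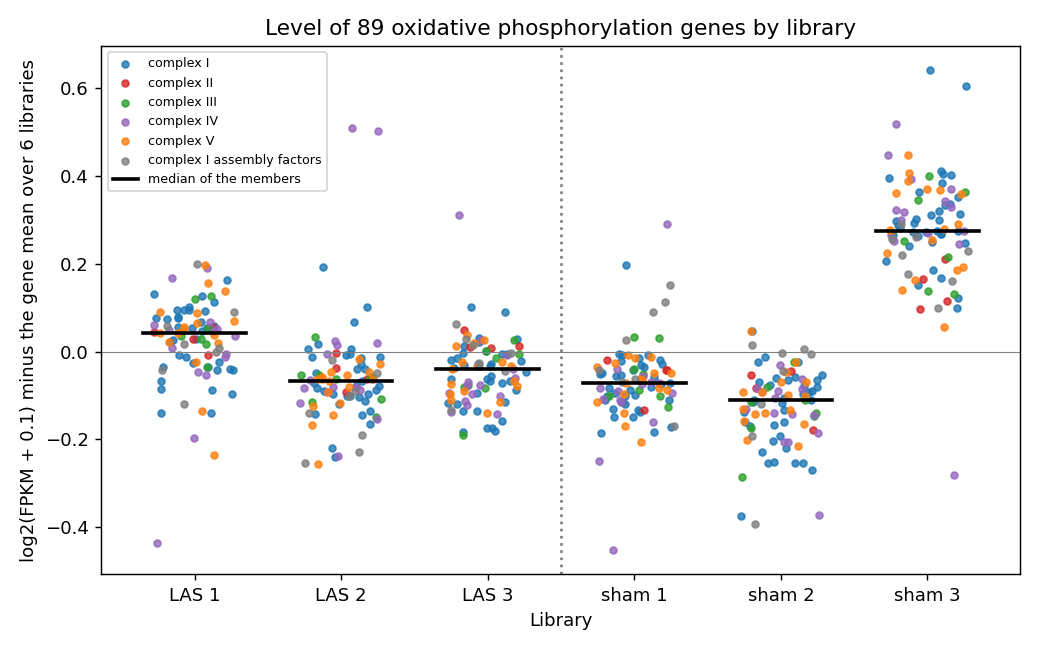
Level of 89 oxidative phosphorylation genes in each library, as log2(FPKM + 0.1) minus the gene's mean over 6 libraries (points, colored by complex; black bars, median). Sham replicate 3 holds the highest point of each gene except Cox4i2, Cox6b2 and Ndufa4l2. Its median over all 92 tested genes was 0.28, and the muscle isoforms Cox6a2, Cox7a1 and Cox8b are left out of the figure.

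Without sham replicate 3, 78 of the 92 genes were higher in LAS and 14 lower, and 58.1% of all tested genes were higher. The median log2 fold change was then 0.07, against 0.02 over all tested genes. Of the median deviations by library given above, only that of LAS replicate 1 (0.04) was above 0 among these 5 libraries. LAS replicates 2 and 3 (-0.07 and -0.05) lay close to sham replicate 1 (-0.07), and sham replicate 2 was at -0.11. No gene was called by limma in these 5 libraries (0% of all tested genes), and the smallest adjusted p among the 92 was 0.367, for Uqcrb. At an unadjusted limma p of at most 0.05, 7 genes were higher (background 6.45%) and 1 was lower (background 3.72%). The higher genes were Ndufa2, Ndufa11, Ndufa13, Sdhc, Uqcrb, Cox6b2 and Atp5j, and the lower gene was Ndufaf2. The groups did not overlap for 20 genes higher in LAS (background 17.6%) and 2 lower in LAS (background 11.3%). With the libraries also shifted to the same median level, 67 of the 92 genes were higher, with a median of 0.05, where 50.2% of all tested genes were higher. In all, 64 genes were lower in LAS with 6 libraries and higher without sham replicate 3, 14 were higher in both comparisons, 13 were lower in both, and Cox4i2 was higher with 6 libraries only.

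**Figure D2:**
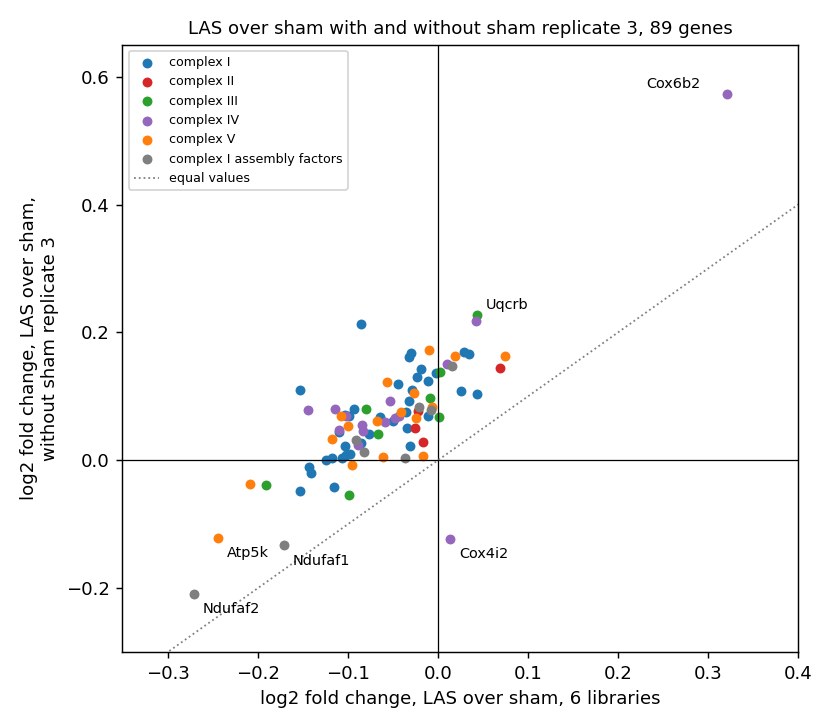
Log2 fold change of LAS over sham for 89 genes, with all 6 libraries (x axis) and without sham replicate 3 (y axis); each point is a gene and the dotted line marks equal values. Most points lie in the upper left field, where the sign differs between the comparisons, while Ndufaf1, Ndufaf2 and Atp5k are below 0 on both axes.

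The standard error of the log2 fold change had a median of 0.12 over the 92 genes with 6 libraries, and of 0.06 without sham replicate 3. For the 77 core and accessory subunits, the log2 fold changes ranged from -0.24 (Atp5k) to 0.07 (Atp5c1) with 6 libraries, and from -0.12 (Atp5k) to 0.23 (Uqcrb) without sham replicate 3. Among the same 77 genes sham replicate 3 was at 1.05-fold (Atp5a1) to 1.65-fold (Ndufa1) the mean of the other libraries, with a median of 1.26-fold. Here and below, the mean in such folds was taken over log2(FPKM + 0.1) values.

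The promoters of these genes are read in many tissues by a shared set of factors, among them NRF1, the ETS factor GABP and YY1. RefSeq promoter windows (build GRCm38.p6, 250 bases before to 50 bases after the start) were matched for 77 of the 94 genes, with 82 windows. A gene was counted when any of its windows held the motif. The NRF1 motif (GCGCA, any base, then GCGC, with both strands searched here and below) was found in 19 of the 77 genes (24.7%), against 5.19% of 27025 genes. The ETS motif (CCGGAAG) was found in 19 (24.7%), against 9.93%, and the YY1 motif (AAGATGGC) in 11 (14.3%), against 3.19%. The SP1 motif (GGGCGG) was found in 35 (45.5%), against 38.2%, the ERR motif (AAGGTCA) in 8 (10.4%), against 5.38%, and the CRE (TGACGTCA) in 4 (5.19%), against 2.03%. A match is a description of the letters in a window and not of binding. Ndufb4, an accessory subunit of complex I, and Cox6a1, the most abundant of all 94 genes, are shown because each window held at least 2 NRF1 motifs. Capitals mark matches to any motif of the set, which are NRF1, SP1 and ERR in Ndufb4 and NRF1, SP1 and ETS in Cox6a1, on either strand.
Ndufb4 (chr16:37654319-37654618, minus strand): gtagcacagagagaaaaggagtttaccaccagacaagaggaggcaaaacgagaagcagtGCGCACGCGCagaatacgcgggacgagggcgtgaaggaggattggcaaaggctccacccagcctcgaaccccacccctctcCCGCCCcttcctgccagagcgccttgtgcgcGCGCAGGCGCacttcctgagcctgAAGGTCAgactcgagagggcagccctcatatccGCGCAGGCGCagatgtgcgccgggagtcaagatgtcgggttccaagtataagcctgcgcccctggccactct
Cox6a1 (chr5:115348909-115349208, minus strand): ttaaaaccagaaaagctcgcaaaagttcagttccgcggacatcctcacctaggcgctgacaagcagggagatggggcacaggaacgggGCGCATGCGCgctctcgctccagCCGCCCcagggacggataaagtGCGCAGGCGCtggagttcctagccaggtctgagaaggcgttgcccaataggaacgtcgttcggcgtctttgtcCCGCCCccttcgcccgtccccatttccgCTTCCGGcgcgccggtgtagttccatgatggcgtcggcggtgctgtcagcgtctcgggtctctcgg

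Complex I is the largest complex, and its core subunits encoded in the nucleus carry the flavin and iron-sulfur centers while accessory subunits surround the core. Its core subunits encoded by the mitochondrial genome are not analysed here. The 38 genes summed to 3211, 3006 and 3005 FPKM in LAS libraries, and to 2979, 2892 and 3860 FPKM in sham libraries. Only sham replicate 3 lay apart. The group means were 3074 ± 119 FPKM in LAS and 3244 ± 535 FPKM in sham (SD, n = 3 each), so the spread among the 3 sham libraries exceeded the difference. Of the 37 tested genes, 33 were lower in LAS (median log2 fold change -0.06), and 33 were higher without sham replicate 3 (median 0.07). All 37 were highest in sham replicate 3.

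Ndufb8, an accessory subunit of the membrane arm and the most abundant complex I gene, was at 227, 209 and 191 FPKM in LAS libraries, and at 209, 206 and 259 FPKM in sham libraries. The LAS values surrounded sham replicates 1 and 2. Its log2 fold change was -0.10 ± 0.11 (SE; limma adjusted p = 1.00), and 0.01 ± 0.07 without sham replicate 3. Ndufb4, whose promoter is printed above, was at 214, 198 and 188 FPKM in LAS and at 193, 185 and 272 FPKM in sham libraries. Sham replicate 3 was at 1.39-fold the mean of the others for this gene, on the log2 scale. Ndufb4 has the near-identical copies Ndufb4b and Ndufb4c in the table, and how reads shared between copies were assigned is not given. Ndufb4c was at 6.23, 7.87 and 6.05 FPKM in LAS and at 6.24, 5.28 and 10.8 FPKM in sham libraries. Ndufb4b, which did not pass the filter, was listed at 0, 0.34 and 0.27 FPKM in LAS and at 0 in every sham library.

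Among the 7 core subunits of complex I encoded in the nucleus, 6 were lower in LAS with 6 libraries and all 7 were higher without sham replicate 3. Ndufv1, the flavoprotein that accepts electrons from NADH, was at 65.8, 64.2 and 66.2 FPKM in LAS and at 59.2, 62.2 and 71.9 FPKM in sham libraries. Its LAS values were above sham replicates 1 and 2 and below sham replicate 3. Ndufs1, the largest core subunit, was at 43.4, 39.0 and 41.9 FPKM in LAS and at 40.4, 41.1 and 45.5 FPKM in sham libraries, with overlapping groups. Of the 29 accessory subunits, 26 were lower with 6 libraries and 25 higher without sham replicate 3. Ndufb5, an accessory subunit with the largest mean difference upward in this complex (0.04 ± 0.08, and 0.10 ± 0.06 without sham replicate 3, SE), was at 79.0, 74.3 and 74.5 FPKM in LAS and at 74.5, 66.9 and 80.0 FPKM in sham libraries. Ndufa13, one of the 7 genes listed above (log2 fold change 0.16 ± 0.06 without sham replicate 3, SE; limma adjusted p = 0.432), was at 69.2, 76.8 and 71.8 FPKM in LAS and at 64.5, 65.2 and 97.1 FPKM in sham libraries. Both show the same layout, with LAS libraries between sham replicates 1 and 2 on one side and sham replicate 3 on the other, apart from small overlaps in Ndufb5.

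The 8 Ndufaf genes encode factors that build complex I and are not part of the finished enzyme. They summed to 118, 109 and 117 FPKM in LAS and to 118, 112 and 138 FPKM in sham libraries. Of the 8, 7 were lower in LAS (median -0.06), and 2 stayed lower without sham replicate 3 (median over the 8 genes 0.02). These were Ndufaf1 and Ndufaf2.

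Ndufaf2, an assembly factor related in sequence to the subunit Ndufa12, was at 18.1, 16.5 and 19.2 FPKM in LAS libraries, and at 21.9, 19.6 and 23.6 FPKM in sham libraries. Every LAS library was below every sham library. The log2 fold change was -0.27 ± 0.09 (SE; limma adjusted p = 1.00), and -0.21 ± 0.08 without sham replicate 3 (adjusted p = 0.469). Ndufaf1, which acts on an intermediate of the membrane arm, was at 12.1, 10.3 and 11.9 FPKM in LAS and at 12.9, 12.1 and 13.5 FPKM in sham libraries. Its groups also did not overlap, and its log2 fold change was -0.17 (limma adjusted p = 1.00), and -0.13 without sham replicate 3 (adjusted p = 0.630). Neither difference passed the adjusted threshold. The most abundant factor, Ndufaf8, was at 27.9, 28.3 and 29.3 FPKM in LAS and at 27.3, 26.4 and 33.4 FPKM in sham libraries, without separation of the groups.

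Complex II, succinate dehydrogenase, also acts in the tricarboxylic acid (TCA) cycle, and all of its subunits are encoded in the nucleus. It showed the smallest excess in sham replicate 3 of the 5 complexes, with a median deviation of 0.14 log2 units there, against 0.26 to 0.33 in complexes I, III, IV and V. Its transcripts were 1142 (Sdhb) to 3171 bases (Sdhc) long. Oxidative phosphorylation genes from 1000 to below 2000 bases deviated by 0.23 in sham replicate 3, and those of 2000 bases or more by 0.16. The part of length in this contrast was not tested. The 4 genes summed to 304, 290 and 303 FPKM in LAS and to 285, 283 and 332 FPKM in sham libraries, with means of 299 ± 7.85 FPKM in LAS and 299.9 ± 27.9 FPKM in sham (SD, n = 3 each). Sdha, the flavoprotein that holds the succinate site, was at 83.2, 78.1 and 82.2 FPKM in LAS and at 80.4, 78.6 and 87.2 FPKM in sham libraries. Sdhb, the iron-sulfur subunit, was at 106, 104 and 108 FPKM in LAS and at 97.6, 104 and 124 FPKM in sham libraries. Neither separated the groups with 6 libraries.

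Sdhc, a membrane anchor, was at 67.1, 64.4 and 66.8 FPKM in LAS and at 62.7, 57.0 and 69.9 FPKM in sham libraries. All LAS values lay above sham replicates 1 and 2. Its log2 fold change was 0.07 ± 0.08 (SE; limma adjusted p = 1.00), and 0.14 ± 0.05 without sham replicate 3 (adjusted p = 0.458). Sdhd, the other anchor, was at 47.1, 42.9 and 46.0 FPKM in LAS and at 44.4, 43.1 and 51.3 FPKM in sham libraries, with overlapping groups. In all, 3 of the 4 subunits were lower with 6 libraries (median -0.02) and 4 of 4 were higher without sham replicate 3 (median 0.06).

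Complex III passes electrons from ubiquinol to cytochrome c. Its 8 genes summed to 938, 864 and 878 FPKM in LAS libraries, and to 878, 829 and 1106 FPKM in sham libraries. Means were 893 ± 38.9 FPKM in LAS and 938 ± 148 FPKM in sham (SD, n = 3 each). Of the 8 genes, 5 were lower in LAS with 6 libraries (median -0.04) and 6 higher without sham replicate 3 (median 0.07). Uqcr10, a small subunit and the most abundant gene of the complex, was at 172, 163 and 161 FPKM in LAS and at 158, 154 and 218 FPKM in sham libraries. Uqcrc1, a core protein, was at 151, 143 and 155 FPKM in LAS and at 158, 152 and 170 FPKM in sham libraries. The LAS values of Uqcrc1 overlapped sham replicates 1 and 2, while those of Uqcr10 were above both, and the Uqcrc1 log2 fold change was -0.10 with 6 libraries and -0.05 without sham replicate 3.

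Uqcrb, a subunit near the ubiquinone site, had the smallest limma p of all 92 genes without sham replicate 3. It was at 131, 129 and 125 FPKM in LAS libraries, and at 116, 104 and 161 FPKM in sham libraries. The 3 LAS values lay close together, above sham replicates 1 and 2 and below sham replicate 3. Its log2 fold change was 0.04 ± 0.15 (SE; limma adjusted p = 1.00), and 0.23 ± 0.06 without sham replicate 3 (adjusted p = 0.367). The difference did not pass the adjusted threshold in either comparison.

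Complex IV reduces oxygen to water. Its catalytic core is encoded by the mitochondrial genome, which is not analysed here, and the nuclear genes listed supply the outer subunits. The 19 genes summed to 3946, 3718 and 3610 FPKM in LAS libraries, and to 3611, 3521 and 4836 FPKM in sham libraries, with means of 3758 ± 172 FPKM in LAS and 3989 ± 734 FPKM in sham (SD, n = 3 each). Of the 18 tested genes, 14 were lower in LAS (median -0.08) and 15 higher without sham replicate 3 (median 0.07). Sham replicate 3 was highest for 15 of the 18.

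Cox6a1, the widely expressed form of subunit VIa, had the highest level of all 94 genes. It was at 718, 755 and 698 FPKM in LAS libraries, and at 690, 702 and 931 FPKM in sham libraries. Cox8a, the widely expressed form of subunit VIII, was at 578, 585 and 542 FPKM in LAS and at 542, 547 and 696 FPKM in sham libraries. In both genes sham replicate 3 was the highest library and the remaining libraries overlapped. Ndufa4 was at 543, 457 and 461 FPKM in LAS and at 457, 420 and 585 FPKM in sham libraries, and its log2 fold change was 0.01 ± 0.14 (SE; limma adjusted p = 1.00), and 0.15 ± 0.09 without sham replicate 3. Cox4i1, which regulates the enzyme by binding ATP, was at 319, 304 and 312 FPKM in LAS and at 305, 308 and 387 FPKM in sham libraries. Cox6b1 was at 347, 321 and 322 FPKM in LAS and at 312, 307 and 419 FPKM in sham libraries, with every LAS value above sham replicates 1 and 2 and below sham replicate 3. Cox7a2l, a relative of Cox7a2, was at 126 to 138 FPKM in LAS and 126 to 160 FPKM in sham libraries. Cox7b, a small membrane subunit, was at 110 to 127 FPKM in LAS and 112 to 157 FPKM in sham libraries.

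**Figure D3:**
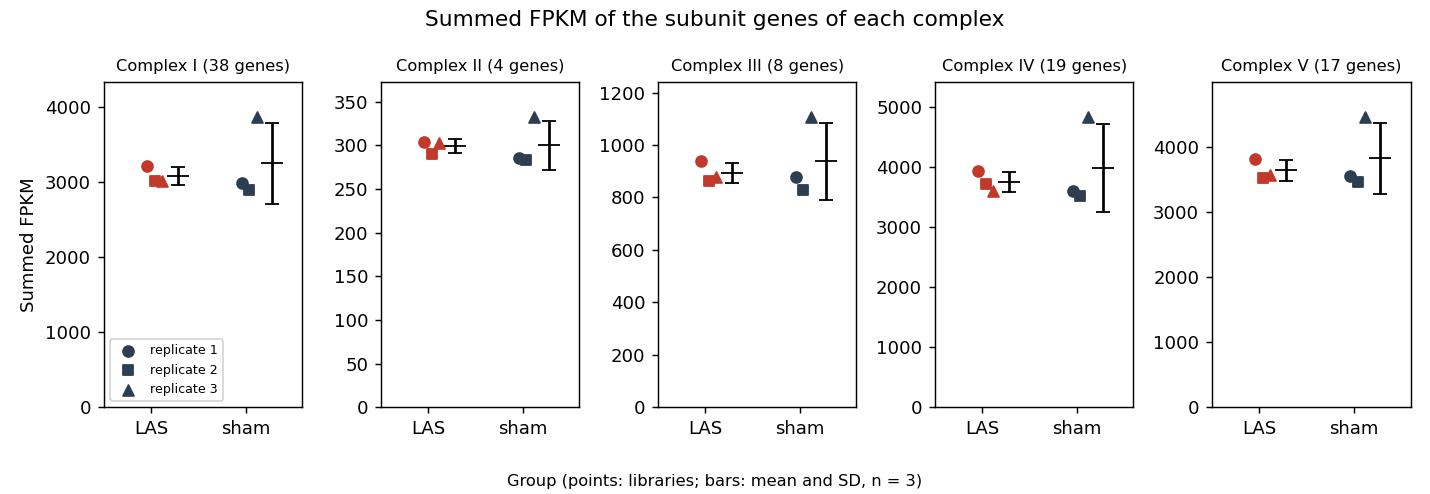
Summed FPKM of the genes of each complex (y axis from 0) in LAS and sham libraries, with a point for each library and bars for mean and SD (n = 3). Sham replicate 3 is the highest point in every complex, at 3860 FPKM in complex I and 4836 FPKM in complex IV.

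The tissue isoforms of complex IV were low in these ganglia, and the muscle forms had the largest excess in sham replicate 3 of all 92 genes. Cox6a2, the form of subunit VIa in heart and skeletal muscle, was at 3.88, 2.25 and 0.83 FPKM in LAS libraries, and at 1.80, 2.37 and 23.8 FPKM in sham libraries. Cox8b, the muscle form of subunit VIII, was at 1.61, 0.16 and 0 FPKM in LAS and at 0.48, 0.63 and 10.9 FPKM in sham libraries. Cox7a1, the muscle form of subunit VIIa, was at 3.18, 3.20 and 2.56 FPKM in LAS and at 1.74, 2.83 and 8.72 FPKM in sham libraries. Sham replicate 3 alone was high for all 3 genes, and the remaining values of LAS and sham overlapped. On the log2(FPKM + 0.1) scale it was at 11.4-fold (Cox6a2), 24.4-fold (Cox8b) and 3.22-fold (Cox7a1) the mean of the other libraries. The Cox8b fold depends on the added 0.1, since some of the other values were at or near 0. The log2 fold changes were -1.23 ± 0.99 for Cox6a2, -2.24 ± 1.38 for Cox8b and -0.24 ± 0.52 for Cox7a1 (SE; limma adjusted p = 1.00 for each). Without sham replicate 3 they were -0.08 ± 0.54 for Cox6a2, -0.88 ± 1.07 for Cox8b and 0.40 ± 0.21 for Cox7a1.

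The maximum of the 3 muscle isoforms was in sham replicate 3, as it was for all 12 genes of the muscle list. Acta1, skeletal muscle actin, was at 61.9, 24.6 and 7.86 FPKM in LAS and at 8.94, 60.8 and 523 FPKM in sham libraries. The order of the 6 libraries by Cox6a2 was the same as their order by the summed muscle list, with sham replicate 3 highest, LAS replicate 1 next and LAS replicate 3 lowest. The orders by Cox7a1 and Cox8b differed from it among the remaining libraries, since Cox7a1 was lowest in sham replicate 1 and Cox8b was higher in sham replicate 1 than in LAS replicate 2. Ckm, muscle creatine kinase, was at 43.3, 13.6 and 4.86 FPKM in LAS and at 4.36, 35.8 and 337 FPKM in sham libraries, and Pvalb, which muscle and some sensory neurons express, at 90.5, 55.9 and 72.5 FPKM in LAS and 75.7, 65.6 and 243 FPKM in sham libraries. The values of Cox8b were whole multiples of its lowest value above 0, 0.16 FPKM, to within rounding in the low libraries (1 to 10.1 times), so its levels outside sham replicate 3 rest on few reads. The part of muscle RNA in the values of the other members was not tested.

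**Figure D4:**
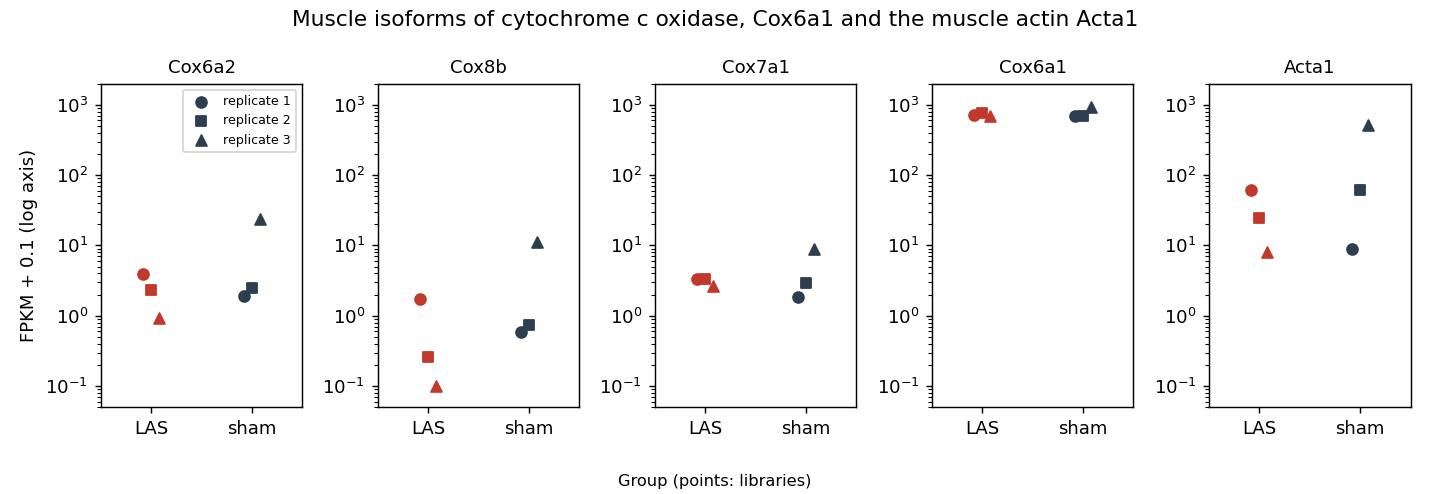
FPKM + 0.1 (log axis) of the muscle isoforms Cox6a2, Cox8b and Cox7a1, of the widely expressed Cox6a1 and of the muscle actin Acta1, with a point for each LAS and sham library. Sham replicate 3 is the highest point in each panel, at 23.8 FPKM for Cox6a2 and 523 FPKM for Acta1, and Cox6a1 lies between 690 and 931 FPKM in every library.

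As a share of the summed FPKM of both isoforms, Cox6a2 made up 0.538%, 0.297% and 0.119% in LAS libraries, and 0.260%, 0.337% and 2.49% in sham libraries. Cox7a1 made up 2.86%, 3.29% and 2.58% of Cox7a1 and Cox7a2 in LAS, and 1.82%, 2.90% and 5.50% in sham libraries. Cox8b made up 0.278%, 0.0273% and 0% of Cox8a and Cox8b in LAS, and 0.0884%, 0.115% and 1.55% in sham libraries. The widely expressed isoform thus supplied nearly all of the transcript in each library, sham replicate 3 included. An exact two-sided permutation test over the 6 libraries gave p = 0.6 for Cox6a2, p = 0.8 for Cox7a1 and p = 0.5 for Cox8b (adjusted p = 1 over 5 isoform pairs). With 3 libraries against 3, the smallest p that test can give is 0.1.

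The windows of both muscle isoforms with a promoter in the RefSeq table are shown beside those of their widely expressed partners, since each pair sets a low muscle form beside an abundant one. Capitals mark the same motif set, to which the muscle motifs MEF2 (CTATTT, any base, then TAG) and E-box (CAGCTG) were added after the values had been seen. Neither Cox7a1 nor Cox8b held an NRF1 or ETS motif. Cox8b held 2 E-boxes, a motif found in 6 of the 77 genes (7.79%) and in 18.3% of all genes, and MEF2 was in 0 of the 77 and 0.451% of all genes. Cox8a held 2 ETS motifs, Cox7a2 held 1 SP1 motif and Cox7a1 held no motif of the set.
Cox7a1 (chr7:30183921-30184220, plus strand): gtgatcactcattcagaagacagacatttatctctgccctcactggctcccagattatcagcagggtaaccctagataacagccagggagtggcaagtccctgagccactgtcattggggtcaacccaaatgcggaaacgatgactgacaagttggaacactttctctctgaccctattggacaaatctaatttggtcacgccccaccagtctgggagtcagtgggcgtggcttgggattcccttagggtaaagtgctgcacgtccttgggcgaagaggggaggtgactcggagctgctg
Cox7a2 (chr9:79759804-79760103, minus strand): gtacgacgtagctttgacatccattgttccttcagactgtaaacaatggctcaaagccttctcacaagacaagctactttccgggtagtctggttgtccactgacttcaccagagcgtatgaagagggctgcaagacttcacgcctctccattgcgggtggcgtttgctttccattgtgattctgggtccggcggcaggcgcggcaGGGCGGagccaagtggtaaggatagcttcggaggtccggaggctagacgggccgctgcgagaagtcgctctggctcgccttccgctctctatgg
Cox8b (chr7:140900397-140900696, minus strand): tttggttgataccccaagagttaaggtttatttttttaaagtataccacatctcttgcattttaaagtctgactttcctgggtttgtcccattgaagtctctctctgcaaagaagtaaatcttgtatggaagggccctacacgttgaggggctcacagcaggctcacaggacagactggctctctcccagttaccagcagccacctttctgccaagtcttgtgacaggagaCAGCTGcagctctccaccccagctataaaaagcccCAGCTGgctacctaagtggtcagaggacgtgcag
Cox8a (chr19:7217567-7217866, minus strand): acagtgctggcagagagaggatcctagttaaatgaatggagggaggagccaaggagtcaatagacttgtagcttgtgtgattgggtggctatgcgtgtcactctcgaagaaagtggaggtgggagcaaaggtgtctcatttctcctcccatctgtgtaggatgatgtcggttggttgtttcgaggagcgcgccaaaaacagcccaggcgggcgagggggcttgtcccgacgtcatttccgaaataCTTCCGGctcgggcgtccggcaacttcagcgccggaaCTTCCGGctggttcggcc

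Among the other isoforms, Cox6b2, Cox4i2 and Ndufa4l2 had their maximum in an LAS library, while Cox7b2 was highest in sham replicate 3. Cox6b2, the testis form of subunit VIb, was at 2.43, 3.60 and 2.56 FPKM in LAS libraries, and at 1.81, 1.92 and 3.21 FPKM in sham libraries. The LAS values were above sham replicates 1 and 2 only. It had the largest positive log2 fold change of all 92 genes, 0.32 ± 0.25 (SE; limma adjusted p = 1.00), and 0.57 ± 0.18 without sham replicate 3 (adjusted p = 0.414). Its share of Cox6b1 and Cox6b2 was 0.695%, 1.11% and 0.788% in LAS and 0.577%, 0.621% and 0.761% in sham libraries (exact two-sided permutation p = 0.2, adjusted p = 1). Cox4i2, the form induced in lung and by low oxygen, was at 0.97, 1.05 and 1.42 FPKM in LAS and at 1.40, 1.10 and 0.91 FPKM in sham libraries, and its share of Cox4i1 and Cox4i2 was 0.304%, 0.345% and 0.452% in LAS and 0.457%, 0.356% and 0.234% in sham libraries (exact two-sided permutation p = 1). Ndufa4l2, a relative of Ndufa4 induced by low oxygen, was at 1.06, 2.13 and 1.46 FPKM in LAS and at 1.22, 1.32 and 1.87 FPKM in sham libraries. For these 2 genes the groups overlapped. Cox7b2, the testis form of subunit VIIb, did not pass the filter, at 0.31, 0.21 and 0.10 FPKM in LAS and 0.10, 0.10 and 0.52 FPKM in sham libraries, near whole multiples of 0.10 FPKM. Its second highest library was LAS replicate 1, as for the summed muscle, neutrophil and erythroid lists and for 59 of the 92 tested genes.

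Complex V makes ATP in its F1 head, which a stalk and a membrane ring of c subunits drive. Its 17 genes summed to 3827, 3534 and 3570 FPKM in LAS libraries, and to 3558, 3467 and 4463 FPKM in sham libraries, with means of 3643 ± 160 FPKM in LAS and 3829 ± 551 FPKM in sham (SD, n = 3 each). Of the 17, 15 were lower in LAS (median -0.06) and 14 higher without sham replicate 3 (median 0.07). All 17 were highest in sham replicate 3, and 15 of them were next highest in LAS replicate 1. The F1 genes, alpha to epsilon, deviated less in sham replicate 3 (median 0.16 log2 units over 5 genes) than those of the membrane part and peripheral stalk (0.32 over 12 genes). This contrast was not tested. Among the F1 genes, sham replicate 3 was at 1.38-fold the mean of the others for Atp5e, whose transcript is 421 bases long. It was at 1.05-fold to 1.21-fold for the rest, which have transcripts of 1166 to 2471 bases. Transcripts of the membrane part and peripheral stalk were 371 to 4715 bases long, and the part of length was not tested.

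Atp5b, the catalytic beta subunit, was at 614, 586 and 577 FPKM in LAS libraries, and at 594, 586 and 677 FPKM in sham libraries. Its groups overlapped, and its log2 fold change was -0.06 ± 0.08 with 6 libraries and 0.01 ± 0.05 without sham replicate 3 (SE; limma adjusted p = 1.00 and 0.982). Atp5d, the delta subunit, was at 350.5, 335 and 320 FPKM in LAS and at 343, 330 and 404 FPKM in sham libraries. Atp5a1, the alpha subunit, had the most even level of the 77 core and accessory subunits in sham replicate 3, at 305, 282 and 289 FPKM in LAS and 292, 289 and 306 FPKM in sham libraries. Alpha and beta subunits stand in equal number in the enzyme, and the Atp5b level per length was above that of Atp5a1 in every library. Atp5c1, the rotating gamma subunit, had the largest positive difference of the complex, 0.07 ± 0.10 with 6 libraries and 0.16 ± 0.07 without sham replicate 3 (SE), at 163, 142 and 152 FPKM in LAS and at 143, 129 and 163 FPKM in sham libraries.

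Atp5k, the e subunit that helps to join ATP synthase dimers, was the core or accessory gene furthest below 0. It was at 71.1, 65.4 and 79.5 FPKM in LAS libraries, and at 75.5, 80.7 and 101 FPKM in sham libraries. LAS replicate 3 lay between sham replicates 1 and 2, and the other LAS libraries lay below all sham libraries. The log2 fold change was -0.24 ± 0.12 (SE; limma adjusted p = 1.00), and -0.12 ± 0.08 without sham replicate 3 (adjusted p = 0.659). The c ring genes Atp5g1, Atp5g2 and Atp5g3, which encode the same mature protein, were at 223 to 244, 107 to 123 and 143 to 166 FPKM in LAS, and at 211 to 266, 103 to 140 and 144 to 188 FPKM in sham libraries. Atp5g1 was thus the highest of the 3 in each library.

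Oxidative phosphorylation transcripts are short, and the excess in sham replicate 3 was graded by transcript length. The median transcript length, from the principal transcripts of GENCODE vM21, was 865 bases for the 91 genes with a value, against 3024.5 bases for all tested genes, and 57.1% of the 91 were under 1000 bases, against 5.77%. In sham replicate 3 the median deviation of the oxidative phosphorylation genes was 0.34 log2 units under 700 bases (33 genes), 0.28 from 700 to below 1000 bases (19 genes), 0.23 from 1000 to below 2000 bases (29 genes) and 0.16 at 2000 bases or more (10 genes). The other tested genes deviated by 0.34, 0.25, 0.15 and -0.02 in the same classes. Short oxidative phosphorylation genes thus lay at the level of other short genes, and the values differed most in the longest class, which holds few oxidative phosphorylation genes. Across genes, the deviation in sham replicate 3 had a Pearson r of -0.31 and a Spearman rho of -0.59 with log2 length over the 91 genes, and -0.35 and -0.55 over 13756 tested genes, where all points share 1 library.

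**Figure D5:**
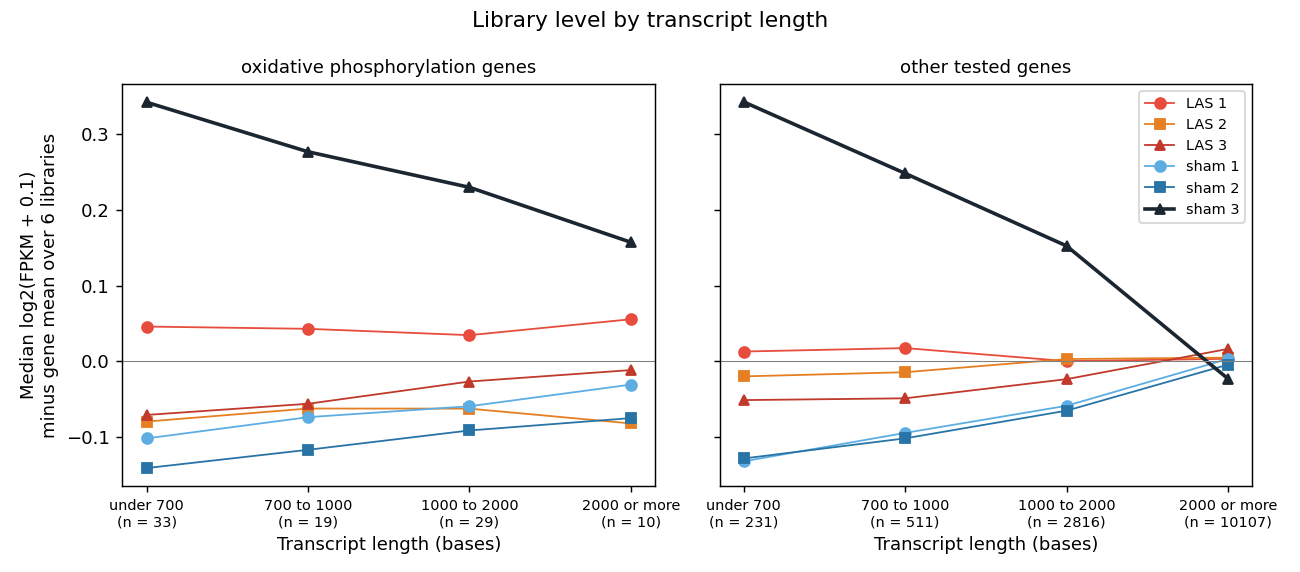
Median log2(FPKM + 0.1) minus the gene mean, by transcript length class, for oxidative phosphorylation genes (left) and other tested genes (right), with a line for each library. Sham replicate 3 declines with length in both panels, to 0.16 for oxidative phosphorylation genes and -0.02 for other genes of 2000 bases or more.

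Without sham replicate 3, the median log2 fold change of the oxidative phosphorylation genes was 0.07, 0.07, 0.07 and 0.03 in the 4 length classes, from short to long, and that of the other tested genes was 0.11, 0.08, 0.05 and 0.01. Other genes under 1000 bases thus had medians at or above those of the oxidative phosphorylation genes, and longer genes had medians below them. The part of transcript length in the differences was not tested.

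Other genes of mitochondria and of translation gave the setting. Of 78 mitochondrial ribosomal protein genes, which make the machinery for the subunits encoded in mitochondria, 59 were lower in LAS (median -0.06) and 55 higher without sham replicate 3 (median 0.04), and 68 were highest in sham replicate 3. Of 76 tested cytosolic ribosomal protein genes, 63 were lower (median -0.07), 70 were higher without sham replicate 3 (median 0.11), and 75 were highest in sham replicate 3. Of 14 TCA cycle genes, which supply NADH and succinate, 10 were lower (median -0.04) and 9 higher without sham replicate 3. Of 40 assembly factors outside the Ndufaf family, 19 were lower and 21 higher (median 0.00), and 28 were higher without sham replicate 3, with 20 highest in that library. The most abundant genes of these lists had the same layout in part. Mdh2, malate dehydrogenase, was at 303, 285 and 288 FPKM in LAS and at 290, 276 and 332 FPKM in sham libraries, and Rps26 at 503, 583 and 492 FPKM in LAS and at 473, 503 and 717 FPKM in sham libraries. Mrpl42 was at 68.7 to 84.7 FPKM in LAS and 76.5 to 95.5 FPKM in sham libraries, and Uqcc2, a complex III assembly factor, at 58.6 to 72.0 FPKM in LAS and 69.9 to 80.7 FPKM in sham libraries. All 4 were highest in sham replicate 3. None of these lists held a gene called by limma with 6 libraries. At an unadjusted limma p of at most 0.05 there was 1 mitochondrial ribosomal protein gene (Mrps30, higher) and 1 assembly factor (Ecsit, lower), and 0 of the cytosolic ribosomal proteins and TCA cycle genes. The background was 3.53% of all tested genes. Without sham replicate 3 none of these lists held a called gene either. At an unadjusted limma p of at most 0.05 there were then 21 of the 76 cytosolic ribosomal protein genes, 7 of the 78 mitochondrial ribosomal protein genes and 5 of the 40 assembly factors (Tmem126b, Surf1, Cox16, Cox17 and Cox20), all higher in LAS (background 6.45%), and 1 TCA cycle gene (Ogdh), lower in LAS (background 3.72%).

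Among 16 regulators of mitochondrial biogenesis, 11 were lower and 5 higher in LAS (median -0.03), and 0 were called. At an unadjusted limma p of at most 0.05 there was 1, where the background was 3.53% of all tested genes. Without sham replicate 3, 10 were lower and 6 higher (median -0.04), again with 1 at that unadjusted p (background 6.45% higher in LAS). In both comparisons this was Yy1, a zinc finger factor whose motif was counted above. Yy1 was at 14.1, 14.9 and 14.1 FPKM in LAS libraries, and at 11.6, 11.4 and 11.8 FPKM in sham libraries. All LAS libraries were above all sham libraries, sham replicate 3 included, as was the case for 5.89% of all tested genes. The log2 fold change of Yy1 was 0.30 ± 0.06 (SE; limma adjusted p = 1.00), and 0.31 without sham replicate 3 (adjusted p = 0.248). The 3 most abundant regulators were Nfe2l2, Esrra and Yy1, and neither Nfe2l2 (29.3, 32.4 and 28.1 FPKM in LAS, and 28.3, 27.1 and 28.9 FPKM in sham libraries) nor Esrra (23.1, 19.5 and 22.1 FPKM in LAS, and 21.4, 20.6 and 26.4 FPKM in sham libraries) separated the groups. Ppargc1a, a coactivator of these factors, was at 6.14, 4.90 and 6.44 FPKM in LAS and at 6.77, 6.04 and 4.06 FPKM in sham libraries. It was lowest in sham replicate 3, where 7 of the 16 regulators were highest. A link to the subunit genes was not tested.

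The 10 genes of pyruvate dehydrogenase and its kinases and phosphatases set the entry of glucose carbon into mitochondria. Of these, 6 were higher and 4 lower in LAS both with 6 libraries (median 0.02) and without sham replicate 3 (median 0.03), and only 2 were highest in sham replicate 3. Pdk4, a kinase that switches pyruvate dehydrogenase off and was named after its values were seen, was at 1.16, 1.71 and 1.43 FPKM in LAS and at 3.05, 2.85 and 3.89 FPKM in sham libraries. Every LAS library was below every sham library. Its log2 fold change was -1.14 ± 0.18 (SE; limma adjusted p = 1.00), and -1.01 without sham replicate 3 (adjusted p = 0.215), so it did not pass the adjusted threshold. Pdhb, the most abundant gene of this list, was at 115, 105 and 110 FPKM in LAS and at 109, 107 and 126 FPKM in sham libraries. Atpif1, an inhibitor of ATP synthase and the most abundant of 9 further subunits, carriers and regulators whose symbols lie outside the 94, was at 244, 237 and 207 FPKM in LAS and at 240, 230 and 318 FPKM in sham libraries. Cycs, the cytochrome c that links complexes III and IV, was at 49.9, 48.2 and 49.4 FPKM in LAS and at 45.9, 44.6 and 54.9 FPKM in sham libraries, the same layout as Uqcrb.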

How the data were processed

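The 3 LAS and 3 sham libraries of L3-5 DRG, taken on day 14, were sequenced on BGISEQ-500. Reads were mapped to the mouse genome by the authors, who deposited FPKM for each gene, given to 2 decimals. The aligner, build and annotation were not given in the sources used here. Further deposited columns hold the result of the authors' own test (edgeR and limma-voom in the study's methods), namely a p-value, its q-value and a log2 ratio. These 3 columns were not used. The study reported differentially expressed genes from its own test, while limma on FPKM as used here called none. The cause of this difference was not tested. Libraries were assigned to groups by their labels.

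Because FPKM values are not counts, the scale log2(FPKM + 0.1) was used for limma (version 3.58.1, R 4.3.3), with a trended prior variance, two-sided tests and Benjamini-Hochberg adjustment over all 14006 genes at 0.5 FPKM or more in 3 libraries. Isoform shares were compared by exact permutation. Python 3.11.15, NumPy 2.4.6, pandas 2.3.3, SciPy 1.17.1 and matplotlib 3.10.9 served for the rest. Transcript lengths were taken from GENCODE vM21 and promoters from RefSeq GRCm38.p6, which may differ from the build of the deposited values.

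The genes and lists were chosen with earlier results of these data known. Named genes were the 2 most abundant of each complex, the complex IV isoforms and their partners, the SDH subunits, the 5 largest differences in each direction, genes with an unadjusted p of at most 0.05, genes that failed the filter, the most abundant gene of each other list and the 3 most abundant muscle genes and regulators. Any other gene was named after its values were seen. Alternatives covered the pseudocount, filter, scaling, variance model, fold minimum, a replicate block and leaving out each library.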

Additional observations from a re-analysis of the deposited data

How the results depend on the processing

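No gene was called by limma under any of the 21 alternatives. The 495 genes at an unadjusted p of at most 0.05 became 1487 with array weights, 288 without LAS replicate 3, 1425 without sham replicate 3, and, in settings chosen after seeing the data, 1368 and 1439 without sham replicate 3 at equal medians and at equal FPKM sums. The number of oxidative phosphorylation genes higher in LAS (15 of 92) was 26 at equal FPKM sums, 69 with array weights, 67 and 62 in those 2 added settings, and 3 to 78 when single libraries were left out (3 without sham replicate 2, 7 without sham replicate 1, 9 without LAS replicate 1, 33 without LAS replicate 2 and 78 without sham replicate 3). The median log2 fold change ranged from -0.13 to 0.07 when single libraries were left out. With the replicate number as a block, 15 genes were higher and 321 of all genes had an unadjusted p of at most 0.05. The deviations of same-numbered LAS and sham libraries from their group means had correlations of -0.41, 0.24 and -0.15. Whether the numbers pair the libraries was not given, and 3 such correlations cannot decide it.

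Signs of named genes turned, none with an adjusted p at the threshold in any setting. With array weights these were Ndufb4 (0.024), Sdhb (0.064), Sdha (0.028), Uqcr10 (0.042), Cox6a1 (0.012), Cox8a (0.016), Cox4i1 (0.0052), Cox6b1 (0.057), Cox7a1 (0.20), Cox7a2 (0.027), Cox7a2l (0.022) and Sdhd (0.047). At equal FPKM sums it was Sdha (0.0054), and with quantile normalization Sdhb (0.0018) and Ndufa4 (-0.0054). Without sham replicate 3 and at equal medians these were Ndufb4 (0.058), Sdhb (0.054), Sdha (0.0054), Uqcr10 (0.058), Cox6a1 (0.033), Cox8a (0.037), Cox4i1 (0.00049), Cox4i2 (-0.15), Cox6b1 (0.069), Cox7a1 (0.38), Cox7a2 (0.055), Cox7a2l (0.044), Cox7b (0.025) and Sdhd (0.028), and at equal FPKM sums Ndufb4 (0.047), Sdhb (0.043), Uqcr10 (0.047), Cox6a1 (0.022), Cox8a (0.026), Cox4i2 (-0.15), Cox6b1 (0.058), Cox7a1 (0.37), Cox7a2 (0.044), Cox7a2l (0.033), Cox7b (0.014) and Sdhd (0.016). When single libraries were left out, the log2 fold changes that turned ranged over Ndufb8 -0.16 to 0.010, Ndufb4 -0.20 to 0.081, Sdhb -0.094 to 0.077, Sdha -0.046 to 0.028, Uqcr10 -0.17 to 0.081, Cox6a1 -0.16 to 0.056, Cox8a -0.12 to 0.060, Atp5b -0.099 to 0.0051, Cox4i1 -0.15 to 0.024, Cox4i2 -0.14 to 0.16, Cox6b1 -0.13 to 0.092, Cox7a1 -0.73 to 0.40, Cox7a2 -0.26 to 0.078, Cox7a2l -0.10 to 0.067, Cox7b -0.19 to 0.048, Ndufa4 -0.090 to 0.15, Ndufa4l2 -0.20 to 0.27, Sdhc -0.0027 to 0.14, Sdhd -0.074 to 0.051, Uqcrb -0.088 to 0.23, Ndufb5 -0.025 to 0.10 and Atp5c1 -0.0077 to 0.16. The isoform shares that turned (LAS minus sham, in percentage points) ranged over Cox4i2 -0.040 to 0.072, Cox6a2 -1.09 to 0.019, Cox7a1 -1.29 to 0.55 and Cox8b -0.73 to 6.0e-05.

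With 3 libraries a group, the mean summed FPKM of each complex differed between LAS and sham by less than the SD of the sham libraries, and without sham replicate 3 it was 3.73% to 5.38% higher in LAS. Depth in counts is unknown, so values near 0.1 FPKM are uncertain. Transcript length, muscle, blood and neutrophil transcripts and sham replicate 3 cannot be told apart here. The causes of the turned signs were not tested.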
